A study of Mus musculus with 6 samples.

Results

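Translation initiation factors bring the small ribosomal subunit, the initiator tRNA and the messenger RNA together at a start codon. Their transcripts were followed in the gastrocnemius, a calf muscle of mainly fast fibres, of ageing mice. The genes were taken by name: every gene probe whose RefSeq accession belongs to a symbol beginning with Eif1 to Eif6, leaving out the 4E-binding proteins (Eif4ebp genes). This gave 53 genes with 75 probes, of 20906 genes tested and 55681 probes on the array. All 53 protein-coding genes that RefSeq lists under such names had a probe, and all 53 could be tested. The old group held 3 muscles of male mice aged 25 months, and the young group 3 muscles of male mice aged 13 weeks. The labels give no strain, treatment or genotype, and they leave unsaid whether every muscle came from its own animal. The p-values therefore speak only of the spread among the 6 samples, part of which may be technical. RNA of each muscle was read, with Cy3 as the dye, on 1 single-colour Agilent array, and all arrays shared 1 slide.

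In the cell, eIF2 carries the initiator tRNA as a complex with GTP, and eIF2B recharges eIF2 with GTP after each round. The eIF2 kinases phosphorylate eIF2 under stress, which turns it into an inhibitor of eIF2B and lowers protein synthesis. eIF3 is the large scaffold on the small subunit, and eIF4F, made of a cap-binding protein, a scaffold and an RNA helicase, recruits the messenger RNA. Protein synthesis in muscle is set largely at these steps, through growth signals that act on eIF4E and eIF2B, and much of that control acts on the proteins rather than on their transcripts.

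Between 49.9% and 54.8% of gene spots on an array were well above background, and 0 gene spots were saturated. Precision is limited by having 3 arrays per age. The 5 fast fibre markers Ckm, Acta1, Myh4, Tnnt3 and Pvalb were well above background on every array, which fits the labelled tissue, and their summed relative signal was 3059 to 4142 on old and 3832 to 4738 on young arrays. Of the markers of other cells, the 3 for neutrophils summed to 13.7 to 20.7 on old against 0.419 to 0.867 on young arrays (2 of 3 passed the adjusted test). No macrophage, fibroblast or slow fibre marker passed. On every old array 5 of 6 macrophage markers lay higher, where 7.36% of all genes did (sums of 19.5 to 24.1 old and 17.3 to 19.0 young). The 3 fibroblast markers lay lower on every old array, as did 15% of all genes (sums of 111 to 268 old and 299 to 330 young). The 4 slow fibre markers summed to 378 to 604 on old and 614 to 869 on young arrays. Of the 3 Schwann cell markers Prx passed, and of the fast fibre, lymphocyte, adipocyte, endothelial and tendon markers 0 passed. The part of these cells in the values below was not tested, and in a whole muscle fewer cells of a type cannot be told apart from less RNA per cell. Across genes, which are not replicates, the Pearson correlation of old replicate 1 was 0.976 with both other old arrays and 0.978, 0.982 and 0.969 with young replicates 1, 2 and 3.

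No initiation factor transcript passed the test between old and young muscle, and most differences were small. The test was limma's moderated test with Benjamini-Hochberg adjustment over all 20906 genes, at a threshold of 0.05. Of the 53 members 0 passed, where 0.249% of all genes did. Those were 52 genes, of which 40 (0.191%) were higher and 12 (0.0574%) lower in old muscle. Over all genes the count was 196 without old replicate 1 and 1 to 10 without any other single array, and 0 members passed in each case. The lowest adjusted p among the members was 0.177, for Eif4a3. At an unadjusted p under 0.05 there were 2 members, Eif4a3 and Eif3d, both higher in old muscle and 0 lower, against 14.8% of all genes, 5.7% higher and 9.12% lower. The median log2 difference, old minus young, was -0.01 over the members and -0.08 over all genes, and the members' median turned to 0.08 under quantile normalization and was -0.13 when arrays were centred on their median, which itself moved the median of all genes to -0.20. For 15 members the sign changed under at least 1 other scaling, all of them with differences under 0.25 in size. Old and young values did not overlap in 13 members, 4 higher and 9 lower in old muscle. Among all genes 22.4% were separated in this way, 7.36% higher and 15% lower, so the members' share of 24.5% was near that background.

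For most members the 95% interval lay within a 2-fold change, and smaller changes remain possible. In 41 of 53 (77.4%) the 95% interval of the difference lay between -1 and 1 on the log2 scale, that is, within a 2-fold change either way, beside 66% of all genes. With any 1 array left out this count ran from 37 to 45. Each interval is for 1 gene by its brightest probe, without adjustment for the number of members. Eif2s1 is counted as within it, though its dimmer probe gave a difference of -0.93. The difference itself was smaller than 0.25 in size in 35 members (66.0%) and in 49.7% of all genes. The spread between arrays of the same age was also lower, with a median SD on the log2 scale of 0.18 over the members and 0.28 over all genes. The members were also brighter, with a mean log2 level of 3.37 to 3.56 by array, beside 0.58 to 0.66 over all genes. Whether brightness accounts for the narrower intervals was not tested. Such intervals were not particular to the members. The interval lay within a 2-fold change in 91.3% of the regulators of initiation factors compared below (median SD 0.19). It did so in 82.4% of the elongation, termination and recycling factors (median SD 0.22). The level of 51 of the 53 members was well above background on every array. In the 12 members with wider intervals, among them Eif2b3, Eif2b5, Eif3i, Eif3j1 and Eif4e1b, a change of more than 2-fold lay inside the interval. In simulated data for old versus young over 20898 genes, the test recovered 0% of 50 genes changed by 0.5 on the log2 scale, 18% of those changed by 1 and 90% of those changed by 2. The changed genes were drawn from all genes, which had a wider spread than the members. These rates are therefore not those of the members.

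**Figure D1:**
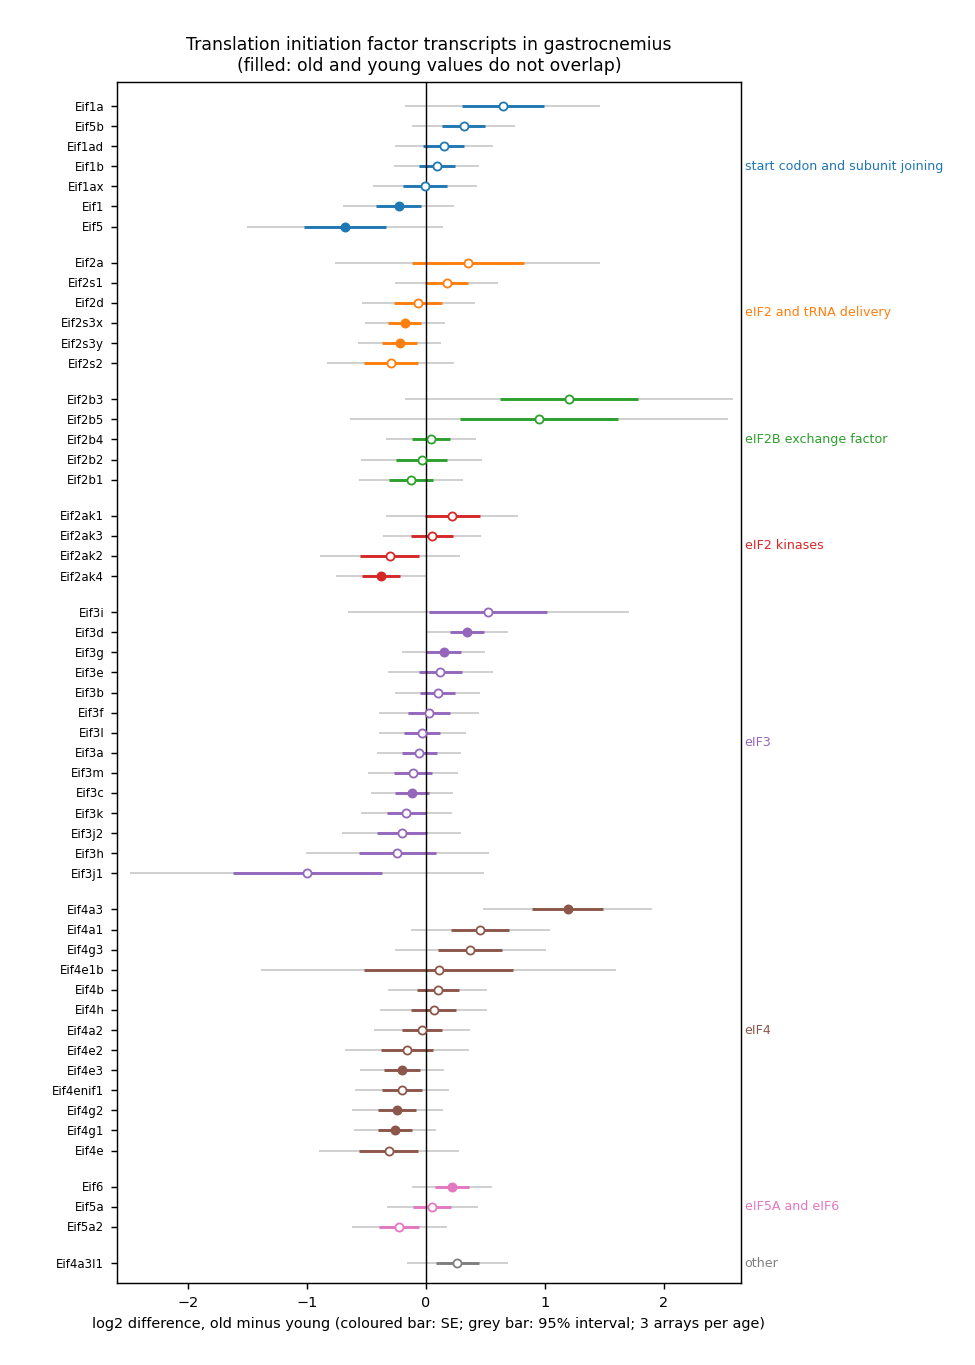
The x axis is the log2 difference, old minus young, for each of the 53 members (y axis, by role), with the SE as a coloured bar and the 95% interval as a grey bar (3 arrays per age, 2 young arrays for Eif1). Most points lie within 0.25 of 0, while Eif2b3 (1.203), Eif4a3 (1.19) and Eif3j1 (-0.999) lie farthest out, and the 13 filled points mark members whose old and young values did not overlap.

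The promoters of the family were read from RefSeq on build GRCm38.p6, where 43 of the 53 members had an entry. They are shown so that a reader can see what letters the control regions of the members share. The counts cover all 43 members with an entry, whether or not their values were separated by age. The comparison is with every gene that has an entry, read in muscle or not. The 250 bases before each start were searched on both strands for 5 short motifs, and a gene was counted where any of its listed starts had a match. The E-box CACGTG, a binding sequence of MYC and other factors, was present in 9 of 43 member genes (20.9%) and in 6.86% of 27025 genes. The core CCGGAAG, bound by ETS factors, was present in 11 member genes (25.6%) and in 7.83% of all genes. The GC box GGGCGG was present in 31 (72.1%) and 35.4%, the CCAAT box in 15 (34.9%) and 37.5%, and the TATA box TATAAA in 4 (9.3%) and 14.3%. Per promoter, the shares over all 32851 windows were 6.02%, 6.91%, 32.7%, 33.8% and 12.4% in that order. A match is a description of the letters and not a site in use. The stretches below end at the base before the start, run 5′ to 3′ on the gene's strand, and have every E-box, ETS core and GC box in capitals. None of these matches overlaps another. Eif4a3 and Eif3d were the members with the lowest p, Eif4g1 carries an E-box, and Eif2s3x and Eif2s3y are the X and Y copies of 1 subunit. Their windows are chr11:119300044-119300293 (minus strand), chr15:77970825-77971074 (minus), chr16:20672477-20672726 (plus), chrX:94212652-94212901 (minus) and chrY:1010345-1010594 (plus).
Eif4a3: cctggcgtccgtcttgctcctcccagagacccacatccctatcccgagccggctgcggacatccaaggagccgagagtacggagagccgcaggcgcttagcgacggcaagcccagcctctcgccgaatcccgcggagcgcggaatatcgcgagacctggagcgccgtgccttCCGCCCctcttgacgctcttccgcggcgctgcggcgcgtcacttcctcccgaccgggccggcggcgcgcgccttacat
Eif3d: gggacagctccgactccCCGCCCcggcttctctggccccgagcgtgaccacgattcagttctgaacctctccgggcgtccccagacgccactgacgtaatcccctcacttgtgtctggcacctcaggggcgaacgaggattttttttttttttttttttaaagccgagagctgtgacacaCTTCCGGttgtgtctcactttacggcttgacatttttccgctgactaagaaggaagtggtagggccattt
Eif4g1: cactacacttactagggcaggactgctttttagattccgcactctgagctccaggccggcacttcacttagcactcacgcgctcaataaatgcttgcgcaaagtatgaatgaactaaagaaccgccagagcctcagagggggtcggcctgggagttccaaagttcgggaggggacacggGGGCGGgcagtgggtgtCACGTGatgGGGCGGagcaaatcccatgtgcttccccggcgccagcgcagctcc
Eif2s3x: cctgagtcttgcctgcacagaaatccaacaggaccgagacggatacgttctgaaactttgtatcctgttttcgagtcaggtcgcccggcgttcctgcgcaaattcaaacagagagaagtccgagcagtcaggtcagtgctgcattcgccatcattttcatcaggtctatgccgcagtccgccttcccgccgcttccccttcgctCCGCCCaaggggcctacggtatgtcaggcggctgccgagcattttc
Eif2s3y: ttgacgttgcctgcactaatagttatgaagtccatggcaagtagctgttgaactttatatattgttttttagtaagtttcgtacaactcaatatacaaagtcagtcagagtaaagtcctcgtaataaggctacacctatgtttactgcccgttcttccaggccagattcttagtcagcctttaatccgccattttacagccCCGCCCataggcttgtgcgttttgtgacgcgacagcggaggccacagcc
The windows of Eif4a3 and of both Eif2s3 copies hold 1 GC box each. That of Eif3d holds 1 GC box and 1 ETS core, and that of Eif4g1 holds 2 GC boxes and 1 E-box.

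eIF2 has 3 subunits, and the transcripts of none passed the test. Its alpha subunit, which the stress kinases phosphorylate, is encoded by Eif2s1, with values of 2.81, 3.14 and 3.25 on old arrays and 2.86, 2.79 and 3.03 on young arrays. All such values are the log2 signal minus the array's 75th percentile over gene spots, given for replicates 1, 2 and 3 in order. The ages overlapped, and the difference was 0.17 ± 0.18 (SE here and throughout, 3 arrays per age). A dimmer probe for the same transcript gave -0.93, with values of -0.64, -0.75 and -1.06 on old against -0.56, 1.17 and -0.28 on young arrays. There the 3 old values lay below the young ones, with young replicate 2 far above the rest, so the direction for Eif2s1 depends on the probe.

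The beta subunit gene Eif2s2 had values of 5.69, 6.25 and 6.17 on old and 6.27, 6.10 and 6.62 on young arrays, which overlapped. Its difference was -0.30 ± 0.23, and its other probe gave -0.35. The gamma subunit, which holds the tRNA and GTP, has a copy on the X and another on the Y chromosome, and both were read in these male mice. Eif2s3x had values of 2.30, 2.30 and 2.37 on old and 2.496, 2.516 and 2.495 on young arrays.

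Eif2s3y had values of 3.38, 3.51 and 3.44 on old and 3.62, 3.62 and 3.76 on young arrays. For both copies every old array lay below every young one, by little: the differences were -0.18 ± 0.14 and -0.22 ± 0.15, or 1.13-fold and 1.17-fold lower in old muscle, with adjusted p of 0.576 and 0.512 in limma's test. The sign was the same under each of the 19 alternative settings for both genes. Leaving out, weighting or blocking arrays could not have reversed it, as the ages did not overlap. The second probe of Eif2s3x gave 0.07 with overlapping values. As the copies share most of their sequence, a probe for either may also pick up the other. Eif2a and Eif2d, which can deliver tRNA without eIF2, differed by 0.35 ± 0.47 and -0.07 ± 0.20. In this role values were separated in 2 of 6 genes (33.3%), the Eif2s3 copies, beside 22.4% of all genes.

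The exchange factor eIF2B has 5 subunits, of which 3 were steady and 2 varied widely between arrays. Eif2b1, Eif2b2 and Eif2b4 differed by -0.13 ± 0.18, -0.04 ± 0.21 and 0.04 ± 0.16. Eif2b3, the gamma subunit, had values of 1.28, 0.03 and 1.72 on old and 0.70, -0.12 and -1.15 on young arrays. The ages overlapped, and the difference of 1.203 ± 0.58 (adjusted p = 0.391 in limma's test) was large but no larger than the spread allows. Its other probe followed the same pattern (0.75, -0.45 and 1.201 on old, 0.33, -0.73 and -2.05 on young arrays) and gave 1.32. Eif2b5, the catalytic epsilon subunit, had values of 3.61, 2.96 and 3.27 on old and 3.33, 2.99 and 0.67 on young arrays. Its difference of 0.95 ± 0.67 rested on young replicate 3, without which it was 0.12. None of the 5 subunits had separated values, where 22.4% of all genes did.

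Of the 4 eIF2 kinases, Eif2ak4 alone (25%) had values that did not overlap, a share near the 22.4% of all genes. Eif2ak4 encodes GCN2, the kinase that senses uncharged tRNA when amino acids run short. It had values of 0.47, 0.27 and 0.34 on old and 0.78, 0.86 and 0.58 on young arrays, so every old muscle lay below every young one. The difference was -0.38 ± 0.16, 1.299-fold lower, with an unadjusted p of 0.0521 and an adjusted p of 0.343 in limma's test. Over the alternatives it ran from -0.51 to -0.26, with adjusted p from 0.138 to 0.642.

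Eif2ak1 encodes HRI, the kinase regulated by heme and mitochondrial stress. It had 0.59, 0.78 and 0.72 on old and 0.88, 0.48 and 0.06 on young arrays, a difference of 0.22 ± 0.23 in which the young spread covered all old values. Eif2ak2, the double-stranded RNA kinase PKR and an interferon-induced gene, had -1.499, -1.46 and -1.08 on old and -1.19, -1.35 and -0.59 on young arrays. It differed by -0.31 ± 0.25 with overlapping values. Eif2ak3, the kinase PERK of the endoplasmic reticulum, had -1.39, -1.19 and -1.09 on old and -1.43, -1.297 and -1.09 on young arrays, a difference of 0.05 ± 0.17 that turned to -0.07 when arrays were centred on their median. For all 4 kinases the 95% interval lay within a 2-fold change.

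**Figure D2:**
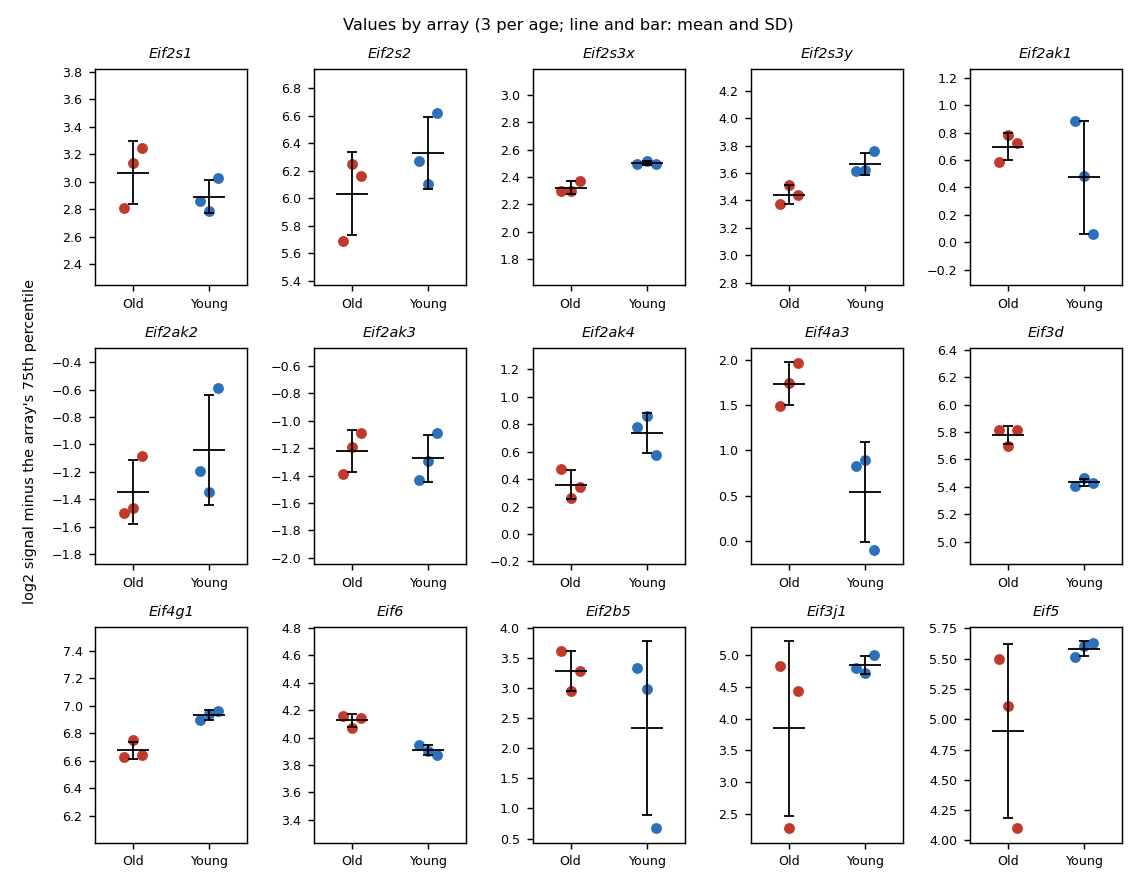
Each panel plots 1 gene, with the log2 signal minus the array's 75th percentile on the y axis and the 3 old arrays left of the 3 young arrays, the line and bar being mean and SD. Eif2s3x, Eif2s3y, Eif2ak4, Eif4g1, Eif5, Eif4a3, Eif3d and Eif6 show no overlap between ages, while the wide bars of Eif2b5, Eif3j1 and Eif5 each hold 1 array far below the rest.

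The eIF3 transcripts varied little. The 14 genes, including the paired copies Eif3j1 and Eif3j2, had a median difference of -0.04 and a median SD between arrays of the same age of 0.12, and 11 of 14 differed by less than 0.25. The core subunits Eif3a, Eif3b and Eif3c, which form the scaffold, differed by -0.06 ± 0.15, 0.10 ± 0.15 and -0.12 ± 0.15. Eif3e, Eif3f, Eif3k, Eif3l and Eif3m had differences from -0.17 (Eif3k) to 0.12 (Eif3e).

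Eif3d, a subunit that can itself bind the cap of some messenger RNAs, had the lowest p of the complex. It had values of 5.82, 5.70 and 5.81 on old and 5.41, 5.46 and 5.43 on young arrays, so the old values lay above the young ones without overlap. The difference was 0.34 ± 0.14, 1.27-fold higher in old muscle, with an unadjusted p of 0.0487 and an adjusted p of 0.334 in limma's test. It stayed between 0.32 and 0.38 when any 1 array was left out. Eif3g, an RNA-binding subunit, was also higher on every old array (7.29, 7.25 and 7.24 old, 7.09, 7.02 and 7.22 young), by 0.15 ± 0.15. Eif3c was lower on every old array by one of its probes (6.85, 6.79 and 6.69 old, 6.90, 6.85 and 6.93 young), and its other probe gave 0.03. Values were separated in 3 of the 14 eIF3 genes (21.4%), near the 22.4% of all genes.

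Single arrays decided the wider eIF3 values. Eif3j1, a loosely attached subunit at the decoding site, had 4.83, 2.27 and 4.43 on old and 4.80, 4.73 and 5.002 on young arrays. Its difference of -0.999 ± 0.63 was -0.21 without old replicate 2. Its near-identical partner Eif3j2, whose probe may not tell the copies apart, had -0.20 ± 0.21. Eif3i had 3.33, 3.32 and 3.08 on old and 3.56, 3.09 and 1.51 on young arrays, a difference of 0.52 ± 0.50 that changed sign without young replicate 3. The probes of Eif3h disagreed in sign, at -0.24 and 0.47.

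Among the 13 eIF4 genes 0 passed, and the helicase Eif4a3 had the widest difference. Values were separated by age in 4 of the 13 (30.8%), beside 22.4% of all genes. Eif4a3 is the helicase of the exon junction complex, which marks spliced messenger RNA, rather than of the cap complex. It had values of 1.49, 1.74 and 1.96 on old and 0.82, 0.89 and -0.10 on young arrays, all old values above all young ones. The difference was 1.19 ± 0.30, 2.29-fold higher in old muscle with a 95% interval of 0.48 to 1.90, an unadjusted p of 0.00551 and an adjusted p of 0.177 in limma's test. Without young replicate 3, its lowest value, the difference was 0.88. Over the 19 alternatives the adjusted p ran from 0.0854 to 0.471, so it passed in none. Eif4a3l1, a close relative, had 2.645, 2.46 and 2.90 on old and 2.33, 2.55 and 2.34 on young arrays, an overlapping difference of 0.26 ± 0.18. The close sequences of these genes mean that each probe may read both.

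Eif4a1 had 5.34, 5.45 and 6.10 on old and 5.18, 4.98 and 5.37 on young arrays, a difference of 0.46 ± 0.25 that was 0.22 without old replicate 3. Both Eif4a1 and Eif4a2 encode helicases of the cap complex, and Eif4a2 differed by -0.03 ± 0.17, and by 0.41 by its other probe. Their cofactors Eif4b and Eif4h, which stimulate the helicase, differed by 0.10 ± 0.18 and 0.06 ± 0.19. Dimmer probes of Eif4b gave 0.66 and 0.08.

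Eif4g1, the main scaffold of eIF4F, was lower on every old array, with values of 6.63, 6.75 and 6.65 on old and 6.90, 6.94 and 6.96 on young arrays. The difference was -0.26 ± 0.14, 1.197-fold lower, with an adjusted p of 0.441 in limma's test and the same sign under all 19 alternatives. As the ages did not overlap, leaving out, weighting or blocking arrays could not have reversed that sign. Eif4g2, a related scaffold that lacks the cap-binding partner's site, was also lower on every old array (2.61, 2.67 and 2.81 old, 3.10, 2.81 and 2.90 young), by -0.24 ± 0.16. The third scaffold Eif4g3 lay the other way, with 5.09, 4.38 and 4.81 on old and 4.63, 4.57 and 3.96 on young arrays, an overlapping difference of 0.37 ± 0.27, and its other probe gave -0.06. The contrast between these scaffolds was not tested.

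Eif4e, the cap-binding protein, had 3.05, 3.35 and 3.65 on old and 3.59, 3.36 and 4.05 on young arrays, a difference of -0.31 ± 0.25 (other probe -0.24) with overlap. Eif4e3, a cap-binding relative, was lower on every old array at -0.03, 0.12 and 0.10, against 0.26, 0.18 and 0.35 on young arrays, by -0.20 ± 0.15. Eif4e2, which acts as a repressor on the cap, gave -0.16 ± 0.22, and its dimmer probes gave -0.11 with overlap and 0.30 with old values above all young ones. The probe with 0.30 read -3.51, -3.74 and -3.57 on old and -4.15, -3.81 and -3.76 on young arrays. That is close to the lowest levels called well above background, -4.44 to -4.06 by array. Eif4enif1, the carrier that takes eIF4E into the nucleus, differed by -0.20 ± 0.17. Eif4e1b, a germline form, was well above background on 2 of 3 arrays of each age, and its second probe on none of 6, so its difference of 0.11 ± 0.63 has little weight.

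Of 7 genes grouped under the last steps, start codon choice and joining of the large subunit, 0 passed. Eif1ad was grouped here by its name. Values were separated in 2 of the 7 (28.6%), beside 22.4% of all genes. Eif5, which triggers GTP hydrolysis by eIF2, had 5.50, 5.11 and 4.10 on old and 5.52, 5.61 and 5.63 on young arrays. The old values lay below the young ones, though old replicate 1 lay close to them, and the difference of -0.68 ± 0.35 was -0.28 without old replicate 3. Its other probe gave 0.05. Eif1a, the scanning factor's autosomal copy, had 1.12, 1.43 and 2.42 on old and 0.88, 0.88 and 1.28 on young arrays, a difference of 0.65 ± 0.35 that was 0.27 without old replicate 3. Its X-linked relative Eif1ax differed by -0.01 ± 0.19.

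Eif1, which guards the accuracy of start codon choice, had 8.85, 8.92 and 8.67 on old arrays and 8.95 and 9.13 on young replicates 2 and 3. Its spot on young replicate 1 was an outlier and was left out, so the difference of -0.23 ± 0.19 uses 2 young arrays. The sign of this difference changed under quantile normalization. It also changed when probes were averaged, because young replicate 1 was then read by the dimmer Eif1 probe alone (3.67). That averaged value therefore says nothing of the direction. The dimmer probe of Eif1, read on all arrays, gave -0.27 with overlap. Eif5b, the subunit-joining GTPase, gave 0.32 ± 0.18 with overlapping values, and Eif1b and Eif1ad gave 0.09 ± 0.15 and 0.15 ± 0.17.

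Eif6, which keeps the large ribosomal subunit free until it is needed, was higher on every old array by both of its probes. The brighter probe had 4.16, 4.07 and 4.14 on old and 3.95, 3.90 and 3.88 on young arrays, and the dimmer one 4.09, 4.01 and 4.04 on old and 3.87, 3.75 and 3.32 on young arrays. The differences were 0.22 ± 0.14 (1.16-fold, adjusted p = 0.509 in limma's test) and 0.40 ± 0.19. Eif5a, the factor that carries the amino acid hypusine and helps elongation and termination, differed by 0.05 ± 0.16 with overlapping values. Its relative Eif5a2 had -1.06, -0.84 and -1.002 on old and -0.69, -0.94 and -0.59 on young arrays, which overlapped, and a difference of -0.23 ± 0.17.

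**Figure D3:**
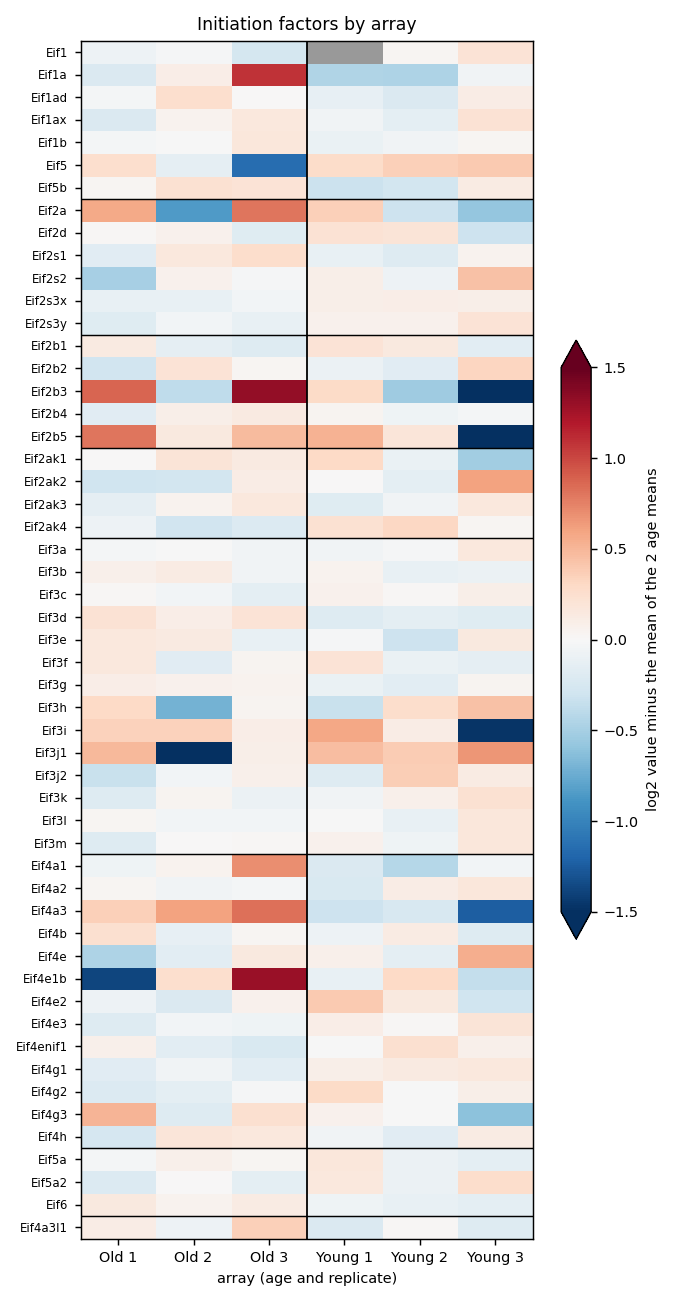
Each row is a member and each column an array, coloured by the log2 value minus the mean of the old and young means (grey: outlier spot left out), with lines between roles. Strong colours are few, among them young replicate 3 for Eif2b3, Eif2b5, Eif3i and Eif4a3, old replicate 2 for Eif3j1 and old replicate 3 for Eif5, Eif1a and Eif2b3.

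Values far from the rest lay on several arrays. Young replicate 3 lay more than 1 below the midpoint of the age means in 4 members (Eif2b3, Eif2b5, Eif3i and Eif4a3), old replicates 1, 2 and 3 in 1 member each, and young replicates 1 and 2 in 0. Old replicate 3 lay more than 1 above that midpoint in 3 members (Eif1a, Eif2b3 and Eif4e1b) and every other array in 0, so Eif2b3 had a far value at each age. Over all genes old replicate 3 likewise had the most values more than 1 above, 545 of 20906 against 133 to 503 on the others. Young replicate 3 had the most values more than 1 below, 767 of 20906 against 289 to 464 on the others. It was the highest of the 6 arrays in 19 members (35.8%) and in 32.2% of all genes, and the lowest in 11 members (20.8%) and in 14.1% of all genes. Old replicate 1 was the lowest in 17 members (32.1%) and in 24.9% of all genes. When the 2 arrays of least weight in limma, old replicate 1 and young replicate 3, were both left out, 0 members passed, 5 had an unadjusted p under 0.05 (20.8% of all genes did), and Eif4a3 had a difference of 0.995 (adjusted p = 0.0856 in limma's test). On the slide, old replicate 1 and all 3 young arrays lay in row 1, and old replicates 2 and 3 in row 2. With the row as a block, old replicates 2 and 3 drop out of the difference, which is then old replicate 1 alone minus the mean of the 3 young arrays in its row. That difference was 0.95 for Eif4a3 (adjusted p = 0.442 in limma's test, the lone old array being assumed to vary like the others), 0.11 for Eif1a, -0.09 for Eif5 and -0.01 for Eif3j1.

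Where several probes read a gene they often differed in sign but seldom by much. Of the 53 members 18 had more than 1 probe above background. In 10 of these the signs were opposite, and in 4 (Eif2s1, Eif5, Eif3h and Eif4b) the probes lay more than 0.5 apart. Eif1, Eif2d, Eif2s2, Eif3k and Eif4e had probes within 0.08 of each other. Of the 74 probes above background 0 passed when every probe was tested singly. Whether the probes that disagree read different transcripts was not tested.

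**Figure D4:**
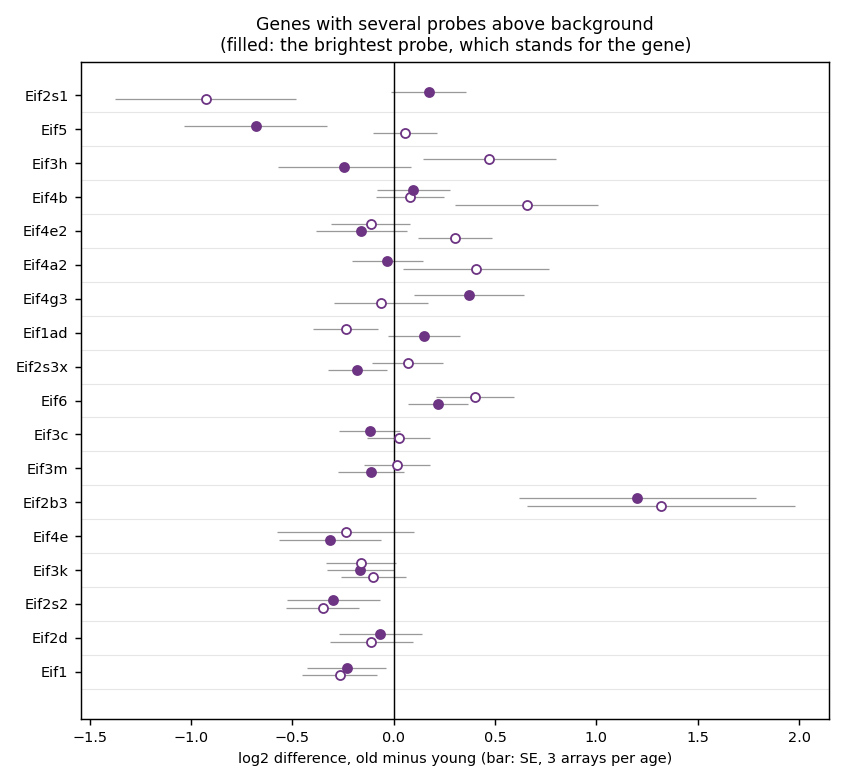
The x axis is the log2 difference, old minus young, of each probe with its SE, for the 18 members with more than 1 probe above background (y axis, the widest gap at the top). The filled probe, the brightest, stands for the gene, and the gap is 1.101 for Eif2s1 and 0.035 for Eif1.

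The rest of the translation machinery was compared by 2 further lists. Of 18 elongation, termination and recycling factors 17 were tested, and 0 passed, with a median difference of 0.01. Eef1a1 and Eef1a2 encode the 2 forms of the factor that brings tRNA to the ribosome, the second being the form of mature muscle. Eef1a1 had values of 5.17, 4.80 and 5.13 on old and 4.57, 4.43 and 4.30 on young arrays, and Eef1a2 had 5.76, 5.60 and 5.52 on old and 5.96, 5.95 and 6.11 on young arrays. They lay apart by age in opposite directions without overlap, by 0.60 ± 0.18 (1.52-fold higher in old muscle, adjusted p = 0.223) and -0.37 ± 0.16 (1.295-fold lower, adjusted p = 0.334) in limma's test. These were the 2 of 17 factors with separated values (11.8%), beside 22.4% of all genes. Eef1a1 had 2 probes above background, of which only the brighter is given. The third by p, the reinitiation factor Mcts1, gave -0.36 ± 0.20 with overlap.

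All 23 regulators of initiation factors were tested and 0 passed, with a median of -0.01. Pabpc4, a poly(A)-binding protein, had 5.56, 5.57 and 5.52 on old and 5.85, 6.17 and 6.17 on young arrays, a separated difference of -0.52 ± 0.16 (adjusted p = 0.243 in limma's test). Impact, an inhibitor of the kinase GCN2, had 2.61, 2.89 and 2.97 on old and 2.496, 2.32 and 2.44 on young arrays, higher on every old array by 0.41 ± 0.17 (adjusted p = 0.334). Paip1, which links the poly(A)-binding protein to eIF4A, was lower on every old array by -0.34 ± 0.17. Values were separated in 4 of the 23 regulators (17.4%), beside 22.4% of all genes. Atf4, the transcription factor that is translated more when eIF2 is phosphorylated, had a transcript difference of 0.00 ± 0.16.

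**Figure D5:**
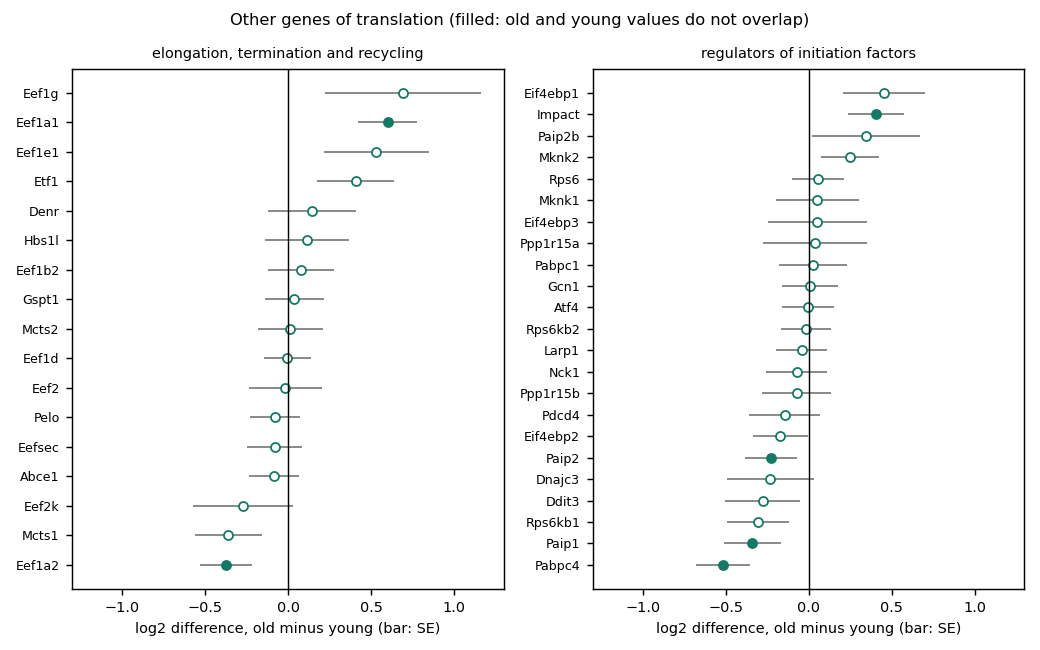
The x axis is the log2 difference, old minus young, with its SE (3 arrays per age), for elongation, termination and recycling factors on the left and regulators of initiation factors on the right. Most points lie near 0, with Eef1a1 (0.60) and Eef1a2 (-0.37) on opposite sides and Pabpc4 (-0.52) lowest among the regulators.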

How the data were processed

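The deposited scanner files hold the intensity of each spot of 6 single-colour Agilent arrays. Per the file headers they were extracted with Feature Extraction 11.0.1.1, protocol GE1_1100_Jul11, on build mm9, while the submitters' processing notes name version 9.5. The authors' deposited value table holds intensity scaled to the 75th percentile, and was used as an alternative. From the background-subtracted processed signal, log2 values minus each array's 75th percentile over gene spots were computed, after outlier spots (161 to 212 of 59305 per array) were left out. The intensity background correction of an alternative used the deposited median signal, with an offset of 50.

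Probes were named through their accession in RefSeq: 28331 of 55681 matched 1 symbol and 27350 did not. The 28012 probes above background on at least 3 arrays gave 20906 genes, each read by its brightest probe. Old was tested against young with limma 3.58.1 in R 4.3.3, two-sided. An exact permutation test of 3 against 3 cannot go below 0.1 and was not used. The fit was tested on simulated data. The members, lists and alternatives were chosen with earlier results of these data known. Values in every sample are given for members with an unadjusted p under 0.05, the eIF2 subunits, the 4 eIF2 kinases and the 2 members of lowest p in each other role. Further members, such as Eif4g1, were named after their values were seen. The replicate numbers do not name shared animals. The alternatives were other scalings and background corrections, filters, probe rules, fit options, blocks and arrays left out.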

Additional observations from a re-analysis of the deposited data

How the results depend on the processing

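No member passed limma's adjusted test under any of the 19 alternatives, and 24 of 53 members kept their sign in all of them. The lowest adjusted p of a member was 0.0854 (Eif4a3, array weights). Genes passing numbered 52, of which 40 were higher in old muscle. They numbered 32 with probes above background on all arrays, 8 with no filter, 205 with array weights, 174 without both old replicate 1 and young replicate 3 (chosen after seeing the data), and 1 to 196 when 1 array was left out. The split was 25 higher of 40 under median centring, 30 of 42 under quantile normalization and 43 of 72 under normexp. With the replicate number as a block 5 genes and 0 members passed. Same-numbered arrays had deviations correlated at -0.06, -0.27 and 0.03, and arrays of other numbers at -0.21 to 0.35. With 3 arrays per age these values cannot decide whether the numbers pair anything.

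Members at an unadjusted p under 0.05 numbered 2 of 53, where 14.8% of all genes did. With the share of all genes in brackets, they numbered 4 under quantile normalization (14.3%), 5 under normexp (15.3%), 1 with no filter (9.45%), 1 with every probe tested (14.2%), 7 with array weights (21.5%), 1 when blocked by slide row (12.1%), 5 without both arrays (20.8%) and 1 to 5 with 1 array left out (8.96% to 18.3%). The slide row block sets old replicate 1 alone against the young arrays. The members' median of -0.01 became 0.083 under quantile normalization, -0.13 under median centring, and -0.022 to 0.0059 with 1 array left out.

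Median centring gave medians of -0.25 for eIF2, -0.25 for the kinases, -0.17 for eIF3, -0.15 for eIF4, -0.070 for eIF5A and eIF6, -0.11 for elongation factors and -0.14 for regulators. Quantile normalization gave 0.042 for eIF3, -0.10 for eIF4, 0.13 for elongation factors and 0.063 for regulators. Normexp gave 0.27 for eIF5A and eIF6 and 0.0086 for regulators. For eIF4 the median was -0.10 with probes above background on all arrays, 0.063 with probes averaged, -0.16 when blocked by slide row, and -0.14 to -0.00024 with 1 array left out. With every probe tested eIF2B had 0.50. Array weights gave 0.011 for the kinases, 0.12 for elongation factors and -0.12 for regulators. The slide row gave 0.065 for eIF3 and -0.045 for regulators. Without both arrays the kinases had 0.033, elongation factors 0.14 and regulators -0.085. Leaving out 1 array gave -0.19 to -0.032 for the kinases, -0.066 to 0.13 for elongation factors and -0.066 to -0.0052 for regulators.

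Eif2ak3 changed sign under median centring (-0.072), the slide row (-0.11), without old replicate 3 (-0.017) and without young replicate 1 (-0.029), and its values with arrays left out ran from -0.029 to 0.22. Eif2s1 changed sign with probes averaged (-0.38) and with the slide row (-0.086). Without both arrays, Eif2b5 was -0.043 and Eif2s2 0.021, the ends of ranges of -0.043 to 1.45 and -0.41 to 0.021. The causes were not tested. With 3 arrays per age, changes under 2-fold could seldom be called.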

Other observations

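Eif4a3 works in the exon junction complex, whose other genes were looked up after its values had been seen. Rbm8a, its partner Y14, had values of 2.05, 2.80 and 2.93 on old and 2.16, 1.55 and 1.40 on young arrays, which overlapped, and differed by 0.89 ± 0.31 (adjusted p = 0.274 in limma's test). Magohb had 1.19, 1.39 and 1.65 on old and 0.69, 0.43 and 1.23 on young arrays, with overlap and a difference of 0.62 ± 0.25 (adjusted p = 0.318 in limma's test). Magoh and Casc3 differed by 0.00 ± 0.21 and 0.08 ± 0.16. None passed the test.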
